A study of Mus musculus with 12 samples.

Results

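The nuclear genes of 9 core enzymes and enzyme subunits of the tricarboxylic acid (TCA) cycle were taken by gene name from a table of 43686 rows: Cs, Idh2, Idh3a, Idh3b, Idh3g, Suclg1, Sucla2, Suclg2 and Mdh2. All 9 were found, and all 9 passed the filter on low counts, which left 17155 rows. RNA-seq libraries were made from the ventricular wall of 6 control mice (WT) and 6 mutant mice (KO) of the C57BL/6 strain. The study's methods name the strain as C57BL/6J. The age was 2 months in the labels and somewhat younger in the study's results text. Its reporting form names male mice for omics work, with ages that include about that of the labels, so the age is uncertain. Both groups carried the floxed alleles (Sdhaf4fl/fl), and the KO mice carried the Ckmm-Cre transgene as well, in which the muscle creatine kinase promoter drives Cre in heart and skeletal muscle. The WT mice had no Cre, so the loss of Sdhaf4 and the presence of Cre cannot be told apart in these libraries, and the other cell types of the ventricular wall are not targeted by this promoter.

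The TCA cycle runs in the mitochondrial matrix, where it oxidizes the acetyl group of acetyl-CoA and hands the electrons to NADH and to succinate dehydrogenase, both of which feed the respiratory chain. Sdhaf4 encodes an assembly factor of succinate dehydrogenase, the enzyme between the succinyl-CoA ligase and fumarase steps. Heart muscle is packed with mitochondria and draws most of its ATP from this route, and the enzymes studied here catalyse the entry step (Cs), the oxidation of isocitrate (the Idh genes), the release of succinate from succinyl-CoA (the Sucl genes) and the regeneration of oxaloacetate (Mdh2).

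Between 23747014 and 27159228 reads were counted per WT library (median 25476732) and between 26542930 and 31393393 per KO library (median 29399085). Levels are given below as counts per 1000000 counted reads (CPM) after TMM scaling, which corrects for library size and composition. The targeted gene, Sdhaf4, was at 25.2 ± 5.80 CPM in WT and 2.40 ± 0.170 in KO (mean ± SD, n = 6 each), and the groups did not overlap. All 10 cardiomyocyte markers examined were abundant, whereas the summed level of 4 skeletal muscle markers stayed at or under 3.89 CPM and that of 3 adipocyte markers at or under 1.11 CPM in each library. Of the cardiomyocyte markers 6 of 10 fell and none rose in KO (median log2 fold change -0.30), and all 8 fibroblast markers rose, with summed levels of 1420 to 1670 CPM in WT and 2584 to 4867 CPM in KO. The summed cardiomyocyte markers were at 70450 to 77800 CPM in WT and at 54850 to 61590 CPM in 5 KO libraries, and KO3 stood apart from these at 78060 CPM. Of 6 endothelial markers 4 rose, of 5 leukocyte markers tested 2 fell, of 5 smooth muscle and pericyte markers 1 fell and 1 rose, and the 2 erythroid markers did not pass. These calls use an adjusted p under 0.05 in the edgeR fit described below, by which 25.5% of all rows tested fell and 25.6% rose. Beside those shares the small leukocyte and smooth muscle counts are not read as a shift of these cell types. Of the atrial markers Myl4 and Nppa rose, the latter also a stress gene of ventricular muscle, and Myl7 and Sln were too low to be tested.

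Core TCA cycle mRNAs were lower in the KO hearts. The fit of edgeR's quasi-likelihood model over the whole table, with p-values adjusted by the Benjamini-Hochberg method, called 8 of the 9 genes lower and none higher at the threshold of 0.05, beside 25.5% of all rows tested that fell and 25.6% that rose. The exception was Idh3a. The log2 fold changes of the 9 ranged from -0.83 for Idh2 to -0.13 for Idh3a with a median of -0.47, beside a median of 0.0022 over all rows. None passed the stricter rule (adjusted p under 0.005 with at least a log2 change of 1), which 4.87% of rows met in the downward direction. For Idh2, Idh3b, Suclg1, Sucla2 and Suclg2 the highest KO value stayed under the lowest WT value, which was so for 15.2% of rows tested. Together the 9 genes took 0.802 ± 0.0167% of a WT library and 0.571 ± 0.0503% of a KO library (n = 6 each). All of them except Idh3g, and thus Idh3a too, are on a list of genes that the study chose as lower in these hearts and in data sets of other heart disease, so their direction is not independent evidence. In bulk tissue fewer cardiomyocytes and less RNA per cardiomyocyte cannot be told apart. How far the cardiomyocyte and fibroblast markers account for these falls was not tested.

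**Figure D1:**
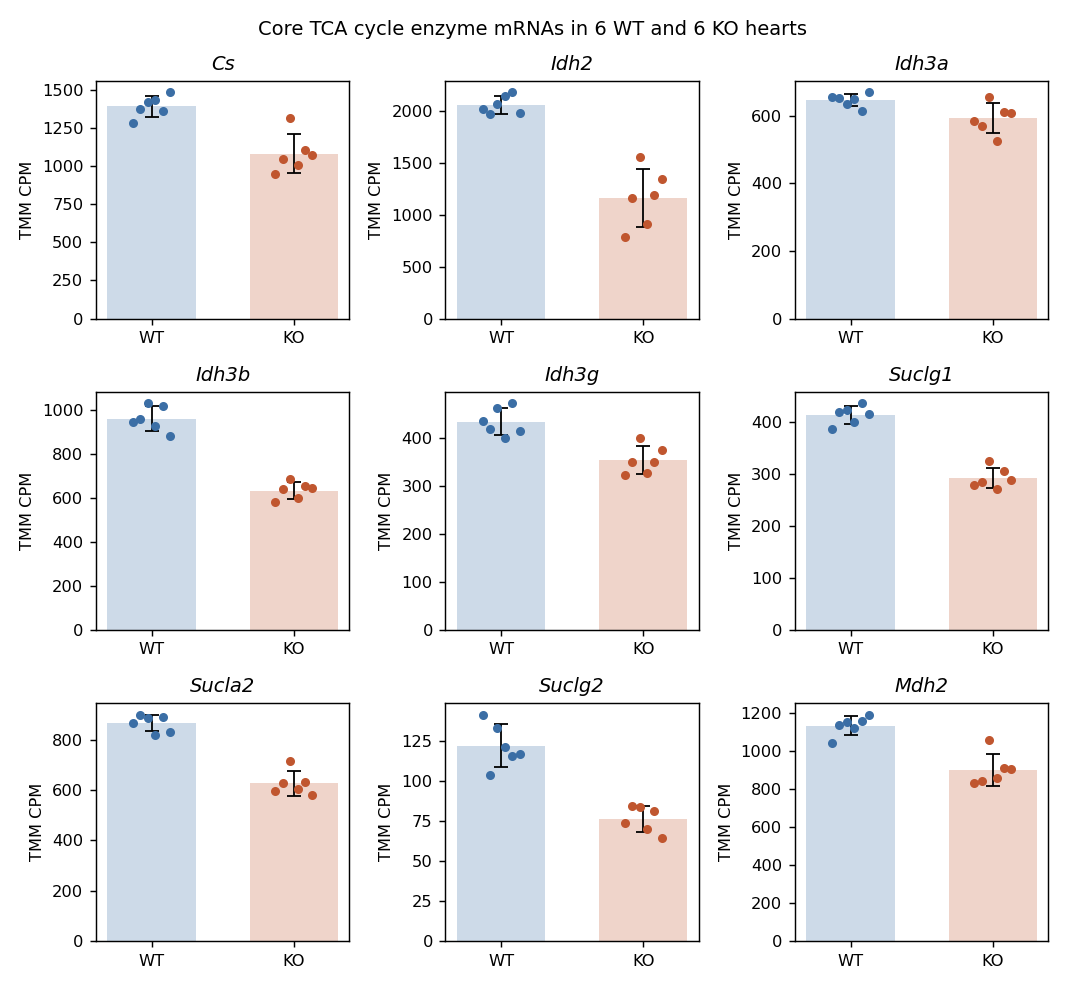
TMM-scaled CPM (y axis, from 0) of the 9 core TCA cycle genes in 6 WT (blue) and 6 KO (orange) libraries, shown left to right from library 1 to library 6 in each group; points are libraries, bars the group mean and whiskers the SD. The KO points sit below all WT points for Idh2, Idh3b, Suclg1, Sucla2 and Suclg2 and overlap the WT range for Cs, Idh3a, Idh3g and Mdh2.

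Cs (MGP_C57BL6NJ_G0018254, chromosome 10 from 136543302 to 136570710, plus strand, on the C57BL/6NJ assembly used throughout for gene spans) encodes citrate synthase, which joins acetyl-CoA to oxaloacetate in the entry step and is widely used as a marker of mitochondrial content. Its level was 1281 CPM in the lowest WT library, 1398 at the median and 1483 in the highest, against 945 at the lowest, 1059 at the median and 1313 at the highest in KO. KO3 held the highest of these values and was the KO library that reached into the WT range. Cs fell with a log2 fold change of -0.36 (SE 0.07, adjusted p = 0.000391 by edgeR's quasi-likelihood test), from 1393 ± 69.4 to 1082 ± 126 CPM. Csl, an intronless relative that matched the Cs mRNA at 91.9% identity over 1522 aligned bases, had at most 3 counts in any library. A processed pseudogene, Gm48254, matches the Cs mRNA at 92.1% identity over 469 bases. No row bears its name, so some reads of this pair could be split.

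Isocitrate is oxidized in the matrix by 2 enzymes, the NADP-dependent Idh2, a source of NADPH for antioxidant defence, and the NAD-dependent IDH3, which is built from the catalytic alpha subunit (Idh3a) and the regulatory beta (Idh3b) and gamma (Idh3g) subunits. The 4 genes lie apart, Idh2 (MGP_C57BL6NJ_G0032885) on the minus strand of chromosome 7 from 85253440 to 85275448, Idh3a (MGP_C57BL6NJ_G0035318) on the plus strand of chromosome 9 from 55144127 to 55162131, Idh3b (MGP_C57BL6NJ_G0026919) on the minus strand of chromosome 2 from 137869465 to 137874709 and Idh3g (MGP_C57BL6NJ_G0036316) on the minus strand of chromosome X from 71684801 to 71692735. Idh2 showed the largest fall of the 9 genes and the widest scatter among mutants. It was at 1974, 2043 and 2182 CPM in WT (lowest, median and highest) and at 787, 1177 and 1559 CPM in KO, with KO1 lowest and KO3 highest. The coefficient of variation was 4.23% in WT and 24.2% in KO, and even so the groups stood apart. The fold change on the log2 scale was -0.83 (SE 0.13, adjusted p = 9.16e-05 by edgeR), which corresponds to a mean 43.7% lower. A row inside the Idh2 span on the same strand had 0.136% of its counts, and Idh3b shares 5 bases with Nop56 on the opposite strand.

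The fold changes of the IDH3 subunits were unequal. Idh3b went from 885, 953.6 and 1031 CPM in WT to 582, 643.5 and 686 CPM in KO (lowest, median and highest), with a wide gap between the groups and a log2 fold change of -0.60 (SE 0.06, adjusted p = 1.86e-07 by edgeR). For Idh3g the same values were 400.1, 428 and 473 CPM in WT and 324, 351 and 402 CPM in KO, so the highest KO library, KO3, just reached the lowest WT library, and the log2 fold change was -0.29 (SE 0.06, adjusted p = 0.000798 by edgeR). The smallest fold change was that of the catalytic subunit. Idh3a was at 614.5, 650.4 and 668.5 CPM in WT and at 523.7, 596.5 and 654.4 CPM in KO, and KO3 was the KO library inside the WT range. Its log2 fold change of -0.13 (95% interval -0.24 to -0.0095) had an adjusted p of 0.0664 by edgeR, and over 21 alternative settings the adjusted p ranged from 0.0109 to 0.158, with 6 of the 21 under 0.05. Leaving out KO3 gave -0.16 with 0.0109, and leaving out WT5 gave -0.15 with 0.0477. For Idh3a KO3 was the highest KO library and WT5 the lowest WT library, so larger falls without them were built in.

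The 250 bases before the annotated start of Idh2 (the largest fall), Idh3b (the largest fall within IDH3) and Idh3g (the subunit with a match to an ETS motif) are shown 5′ to 3′ on the gene's strand, from RefSeq on GRCm38.p6. Capitals mark matches to the motifs described further on. They are from chr7:80115351-80115600, chr2:130284452-130284701 and chrX:73786898-73787147, all on the minus strand.
Idh2: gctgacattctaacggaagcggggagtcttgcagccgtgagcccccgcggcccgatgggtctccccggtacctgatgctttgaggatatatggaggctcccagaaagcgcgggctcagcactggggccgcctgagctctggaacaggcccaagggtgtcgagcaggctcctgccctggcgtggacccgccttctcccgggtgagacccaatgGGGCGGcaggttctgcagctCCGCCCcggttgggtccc
Idh3b: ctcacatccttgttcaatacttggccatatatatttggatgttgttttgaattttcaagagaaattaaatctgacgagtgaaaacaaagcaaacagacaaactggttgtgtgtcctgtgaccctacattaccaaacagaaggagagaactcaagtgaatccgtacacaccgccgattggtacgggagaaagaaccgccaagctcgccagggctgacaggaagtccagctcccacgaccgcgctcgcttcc
Idh3g: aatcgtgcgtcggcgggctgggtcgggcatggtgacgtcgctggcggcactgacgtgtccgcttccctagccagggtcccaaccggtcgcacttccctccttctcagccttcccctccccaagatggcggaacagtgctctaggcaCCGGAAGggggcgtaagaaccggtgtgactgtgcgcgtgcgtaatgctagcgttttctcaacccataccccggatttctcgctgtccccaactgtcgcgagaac
Idh2 holds a pair of GC boxes in the 38 bases nearest the start, Idh3b holds none of the motifs searched, and Idh3g holds the ETS motif 104 bases before the start. The GC content of these stretches was 67.2% for Idh2, 46.8% for Idh3b and 62.8% for Idh3g.

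Succinyl-CoA ligase pairs the alpha subunit Suclg1 with either of its beta subunits, Sucla2 in the ADP-forming enzyme or Suclg2 in the GDP-forming one, and makes succinate, the substrate of succinate dehydrogenase. Suclg1 (MGP_C57BL6NJ_G0031326, plus strand, 75762164 to 75790516) and Suclg2 (MGP_C57BL6NJ_G0031507, minus strand, 99695132 to 99949879) lie on chromosome 6, and Sucla2 (MGP_C57BL6NJ_G0021966, plus strand, 71314426 to 71362022) on chromosome 14. All of its subunits fell without overlap between the groups. Suclg1 was at 386, 417 and 435 CPM in WT (lowest, median and highest) and at 270.4, 286 and 324 CPM in KO, a log2 fold change of -0.50 (SE 0.05, adjusted p = 6.09e-07 by edgeR). Sucla2 was at 820.1, 877 and 900.1 CPM in WT and at 578.5, 616 and 717 CPM in KO, a log2 fold change of -0.47 (SE 0.06, adjusted p = 3.17e-06 by edgeR). Suclg2, with the fewest counts of the 9, was at 103.5, 119 and 141 CPM in WT and at 64.3, 77.3 and 84.0 CPM in KO, a log2 fold change of -0.68 (SE 0.08, adjusted p = 2.46e-06 by edgeR). Its smallest count was 1784, in KO6, with an exact 95% Poisson interval of 1702.2 to 1868.8 that covers counting error only. A processed pseudogene, Gm15163, matches the Suclg2 mRNA at 98.9% identity over 1302 bases, the same length that the deposited table gives for the Suclg2 row, and no row bears its name, so reads of this pair could be split and the level of Suclg2 is uncertain.

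The 250 bases before Suclg2 (chr6:95718847-95719096, minus strand, GRCm38.p6) are given because this gene showed the largest fall of the ligase subunits and the densest run of GC boxes, in capitals.
Suclg2: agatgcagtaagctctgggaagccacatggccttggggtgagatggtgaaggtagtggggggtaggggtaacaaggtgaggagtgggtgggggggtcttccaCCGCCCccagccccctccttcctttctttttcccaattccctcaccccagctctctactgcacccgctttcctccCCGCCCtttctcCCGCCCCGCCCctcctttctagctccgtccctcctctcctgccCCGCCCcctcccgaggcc

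Mdh2 (MGP_C57BL6NJ_G0030621, chromosome 5 from 145593255 to 145605173, plus strand), the mitochondrial malate dehydrogenase, closes the cycle by oxidizing malate to oxaloacetate and takes part in the malate-aspartate shuttle. It was at 1042, 1146 and 1192 CPM in WT (lowest, median and highest) and at 834, 882 and 1059 CPM in KO. Only KO3 reached the WT range. The log2 fold change was -0.33 (SE 0.06, adjusted p = 0.000292 by edgeR), from 1134 ± 50.9 to 902 ± 83.4 CPM.

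The KO libraries were not alike, and the same libraries stood at the ends for most of the genes. KO3 was the highest KO library for 8 of the 9 genes (KO2 for Suclg2), and KO1 was the lowest for 5. Relative to the KO mean the 9 genes averaged 0.21 higher in KO3, 0.14 lower in KO1 and 0.12 lower in KO4 on the log2 scale, and every WT library averaged within 0.05 of the WT mean. KO3 was also the KO library whose summed cardiomyocyte markers were at the WT level, and it had the lowest summed atrial markers of the KO libraries, nearly all of it Nppa (7403 CPM, the others 10080 to 15660). The cardiomyocyte markers were not all at that level one by one. Myh6, Actc1, Ryr2 and Mb were higher in KO3 than in any WT library. Of the 10 markers 4 (Tnni3, Myl3, Atp2a2 and Pln) were below every WT library in all KO libraries, KO3 included. Summed fibroblast markers were highest in KO1 (4867 CPM) and KO4 (4858 CPM), the libraries with the lowest averages of the 9 genes, and were at 2912 CPM in KO3 and 2584 CPM in KO6. The part of these markers in the order of the libraries was not tested. In KO3 Cs, Idh3a, Idh3g and Mdh2 lay within the WT range, whereas Idh2, Idh3b, Suclg1, Sucla2 and Suclg2 lay below all 6 WT libraries, by 0.27 for Sucla2 up to 0.54 for Suclg2 on the log2 scale relative to the WT mean. Without KO3 all 9 genes passed the test, with log2 fold changes from -0.94 to -0.16. All 9 were then free of overlap, beside 17.8% of rows tested. KO3 was singled out as the highest KO library for most of these genes, so larger falls and less overlap without it were built in. The 17.8% leaves out KO3 for every row, not the highest KO library of each, and no share of rows passing is given.

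**Figure D2:**
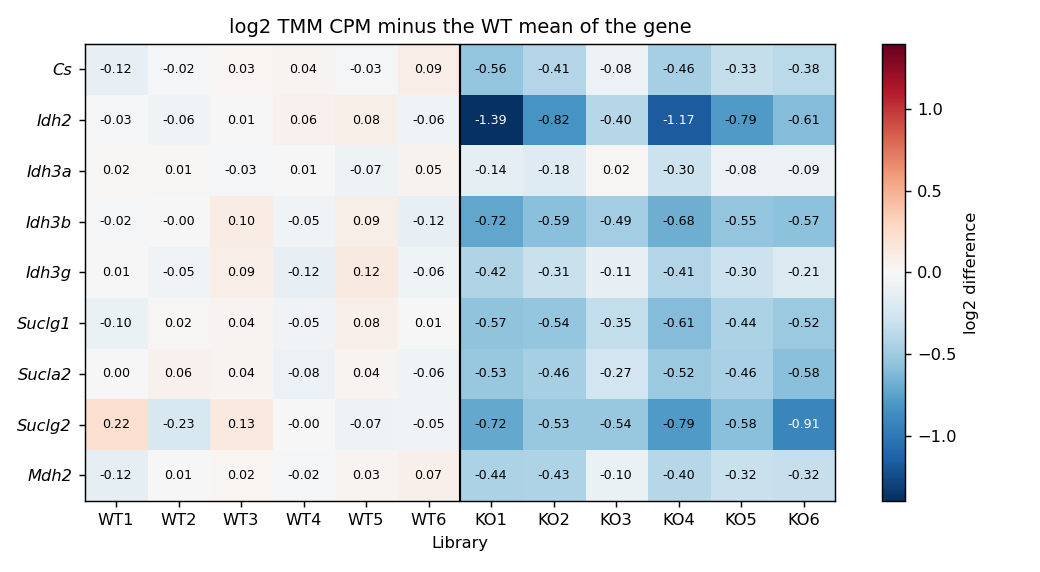
Difference of each library from the WT mean of the gene, in log2 TMM CPM, for the 9 genes (rows) in 6 WT and 6 KO libraries (columns); blue is lower and red higher. The KO3 column is the palest of the KO columns except for Suclg2, and the darkest cells are Idh2 in KO1 (-1.39) and KO4 (-1.17).

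Deviations from the genotype mean were compared between genes over the 12 libraries, as a description, since the genes share libraries and scaling. Pearson's r was positive for 35 of the 36 gene pairs with a median of 0.621, and 24 exceeded 0.5. The pair most alike was Cs and Mdh2, the enzymes that use and make oxaloacetate (r = 0.937), followed by Idh3b and Idh3g (0.884) and by Suclg1 and Mdh2 (0.881). Suclg2 went its own way, with a median r of 0.21 with the other members and -0.005 with Mdh2. The median fell to 0.298 without KO3, so a large part of this likeness rests on that library. Outside the 9 genes, the genes most like their mean deviation among 10241 candidates were Pccb (r = 0.969), Ndufa9 (0.968), Acadm (0.967), Immt (0.966) and Atp5h (0.962). They were picked as the highest of all candidates, and their r was not repeated without KO3, where the mean deviation was largest. Pccb encodes a subunit of propionyl-CoA carboxylase, Ndufa9 a subunit of respiratory complex I, Acadm the medium-chain acyl-CoA dehydrogenase of fatty acid oxidation, Immt a protein of the inner membrane cristae junctions and Atp5h a subunit of ATP synthase.

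Ratios of a pair of mRNAs within a library do not depend on the scaling between libraries, and 9 such ratios of counts were compared by a two-sided exact permutation test over every division of the 12 libraries into 6 and 6, whose smallest p is 0.00216, with adjustment over the 9 ratios. The beta subunit of IDH3 fell further than its partners. Idh3b counts were 1.49 times those of Idh3a in WT (range 1.32 to 1.66) and 1.07 times in KO (0.995 to 1.14), a log2 difference of -0.47 with no overlap (exact p = 0.00216, adjusted p = 0.00648). Against Idh3g the ratio went from 2.21 (2.13 to 2.32) to 1.79 (1.71 to 1.86), a log2 difference of -0.31, also without overlap (exact p = 0.00216, adjusted p = 0.00648). Idh3g against Idh3a went from 0.673 to 0.60, a log2 difference of -0.17 with overlap (exact p = 0.0173, adjusted p = 0.0389), and it no longer passed without WT5, KO1, KO2, KO3, KO5 or KO6 (adjusted p from 0.0536 to 0.0877), that is in 6 of 12 repeats with 1 library removed.

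The balance between the matrix isocitrate dehydrogenases also moved. Idh2 counts were 3.19 times those of Idh3a in WT (2.96 to 3.55) and 1.92 times in KO (1.35 to 2.38), with KO1 lowest and KO3 highest, a log2 difference of -0.74 with no overlap (exact p = 0.00216, adjusted p = 0.00648). Idh2 against its cytosolic counterpart Idh1 went from 25 to 21.5 with wide overlap (log2 difference -0.22, SE 0.19, exact p = 0.288, adjusted p = 0.324), and the size of this difference rests largely on KO1, without which it was -0.078 (adjusted p = 0.576 by the exact test). Mdh2 against cytosolic Mdh1 went from 0.584 to 0.527, a log2 difference of -0.15 that did not pass (exact p = 0.0346, adjusted p = 0.0617) but did without WT1 (-0.18, adjusted p = 0.00487 by the exact test). WT1 had the lowest WT value of this ratio, so a larger difference without it was built in. It did not pass with any other single library removed.

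Within succinyl-CoA ligase no ratio of subunits passed the test with all libraries. Sucla2 counts were 2.10 times those of Suclg1 in WT (2.00 to 2.24) and 2.15 times in KO (2.01 to 2.24), a log2 difference of 0.03 (SE 0.03, exact p = 0.342, adjusted p = 0.342). The GDP-forming subunit against the ADP-forming one, Suclg2 to Sucla2, went from 0.140 to 0.121, a log2 difference of -0.21 (SE 0.08, exact p = 0.0411, adjusted p = 0.0617). Suclg2 to Suclg1 went from 0.293 to 0.260, a log2 difference of -0.17 (SE 0.10, exact p = 0.102, adjusted p = 0.131). WT2 had the lowest WT value in both ratios with Suclg2, and without it both passed, at -0.26 (adjusted p = 0.0195) and -0.22 (adjusted p = 0.0487) by the exact test. A larger difference without the lowest WT library was built in. No other removal of a single library made either ratio pass.

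**Figure D3:**
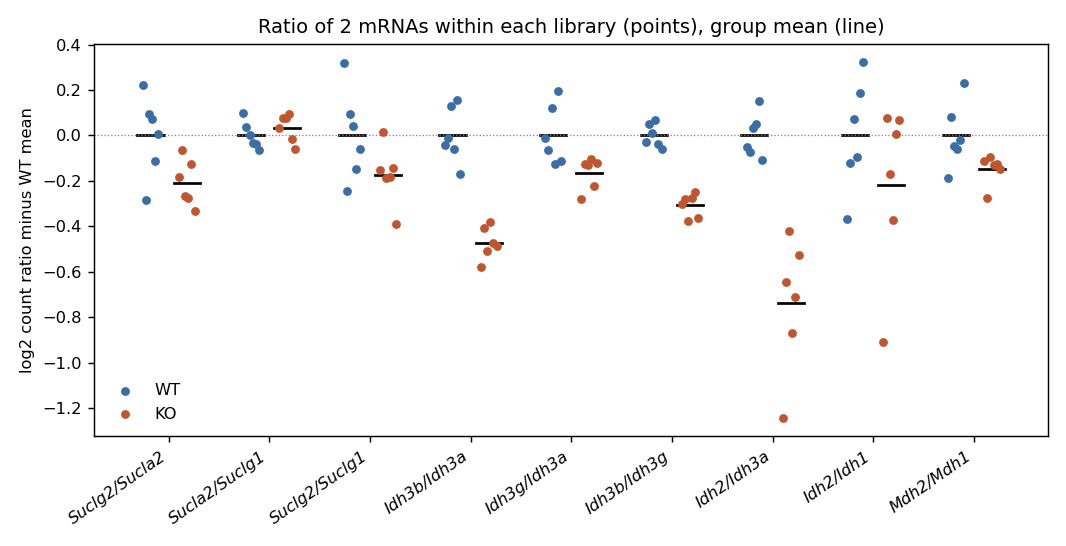
Log2 ratio of the counts of the first named gene to the second within each library, minus the WT mean of that ratio (y axis), for 9 gene pairs (x axis); points are libraries (blue WT, orange KO) and black lines group means. WT and KO separate for Idh3b/Idh3a, Idh3b/Idh3g and Idh2/Idh3a and overlap for the other 6 pairs.

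Levels of different genes were compared per length, with the deposited FPKM, which divide the fragments of a gene by its length in kilobases and by the depth of the library. In WT the order was Idh2 (2026 ± 53.8 FPKM), Mdh2 (1206 ± 65.4), Sucla2 (939 ± 37.7), Idh3b (809.7 ± 37.2), Cs (492 ± 29.6), Idh3g (476 ± 26.5), Suclg1 (382 ± 16.9), Idh3a (268 ± 12.5) and Suclg2 (149 ± 15.5). The ranges of neighbours in this order were separate except for Cs and Idh3g. In KO, Idh2 was at 1138 ± 248 FPKM and no longer separate from Mdh2 at 958 ± 68.4, nor was Suclg1 (269 ± 13.7) from Idh3a (246 ± 13.4). Idh3g (389 ± 22.6) and Cs (382 ± 36.4) overlapped in KO as they did in WT. By mean FPKM among all annotated rows, of which 12845 exceeded 1 FPKM in WT, Idh2 ranked 25 in WT and 52 in KO, Mdh2 58 and 70, and Suclg2 620 and 979. These ranks depend on the lengths behind the deposited FPKM and were not repeated with other lengths.

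The length behind these values matters for the order. The deposited FPKM were computed with the length column of the table for Cs and Idh3a but with a length 1.6 to 2.45 times shorter for the other 7 genes, for example 1081 against 2648 bases for Suclg1. Per kilobase of the length column Cs moved up to rank 3 in WT (492, against 467 for Idh3b and 413 for Sucla2) and Idh3a (268) stood above Idh3g (209) and Suclg1 (156). Idh2 and Mdh2 led and Suclg2 came last with either length and with that of the longest protein-coding GENCODE transcript. The comparison of KO with WT uses 1 gene at a time and does not involve the length.

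**Figure D4:**
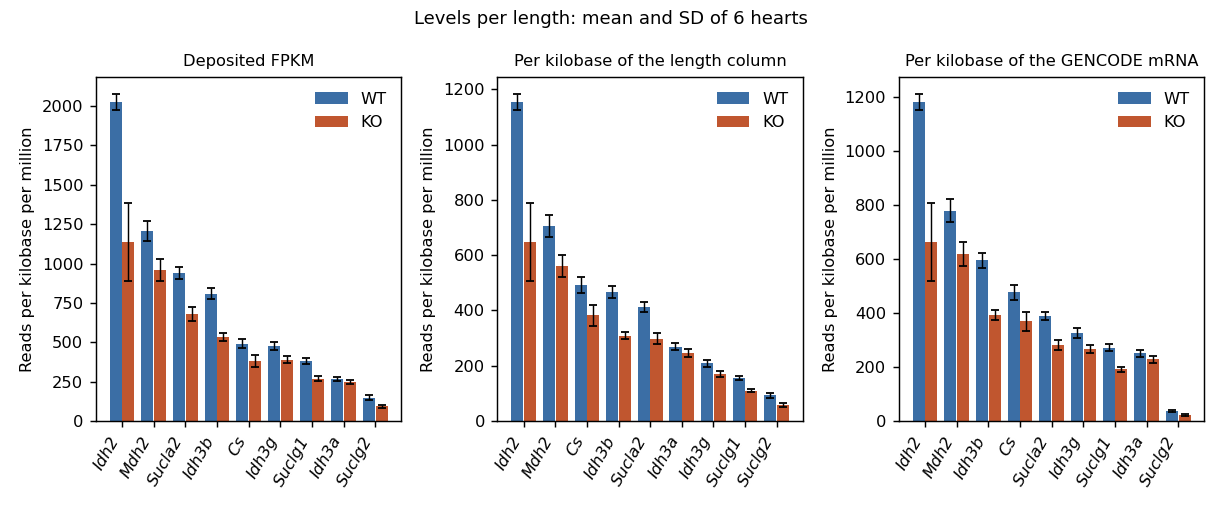
Reads per kilobase and per 1000000 counted reads (y axis, from 0) of the 9 genes in WT (blue) and KO (orange) with the deposited FPKM, the length column of the table, or the GENCODE mRNA length; bars are means and whiskers the SD of 6 libraries, and genes are ordered by the WT mean in each panel. Idh2 and Mdh2 lead and Suclg2 is last in all panels, and the genes between them change places.

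Upstream sequence of the members was searched on both strands for 5 motifs of factors known for mitochondrial or housekeeping genes. RefSeq promoters were at hand for 8 of the 9 genes (not Idh3a), and the 250 bases before the start were used. The GC box of Sp1 (GGGCGG) was found in Cs, Idh2, Mdh2, Sucla2 and Suclg2, 5 of the 8, and in 32.74% of all 32851 promoters of this length. The run in Suclg2 shown above holds 5 matches, those 56 and 61 bases before the start sharing 1 base. The ETS core bound by GABP (CCGGAAG) was found in Idh3g alone and in 6.91% of all promoters. The half-site of the estrogen-related receptors (AAGGTCA), the core of the NRF1 site (TGCGCA) and the E-box of the USF type (CACGTG) were found in none of the 8, and in 4.08%, 6.43% and 6.02% of all promoters. An absent match says only that these letters are not in this window.

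Among the remaining genes of the cycle and its surroundings some fell, Pdhb rose and others did not pass the test. Of 9 other enzymes or subunits of the mitochondrial cycle 6 fell and none rose, with a median log2 fold change of -0.36. Over all rows tested 25.5% fell and 25.6% rose. Ogdhl, a paralog of the 2-oxoglutarate dehydrogenase subunit, fell most (-1.26), from 289 ± 22.0 to 120.4 ± 30.04 CPM, whereas Ogdh itself (-0.06) and its partner Dlst (0.03) did not pass the test. Fumarase, Fh1, fell by 0.74 on the log2 scale, from 573 ± 23.4 to 342.5 ± 33.0 CPM. The succinate dehydrogenase subunits Sdha (-0.46), Sdhb (-0.43) and Sdhc (-0.36) fell and Sdhd (-0.05, adjusted p = 0.402 by edgeR) did not pass. Dld, the dihydrolipoamide dehydrogenase shared by several complexes, fell (-0.27). Ogdhl, Fh1 and Pdha1 are on the study's list mentioned above, so their direction is not independent evidence either.

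Among genes of pyruvate entry and anaplerosis the pyruvate dehydrogenase subunits moved in opposite directions. Pdha1, the E1 alpha subunit, fell (-0.37), from 1593 ± 11.2 to 1236 ± 101 CPM, while Pdhb, the E1 beta subunit, rose (0.56), from 567 ± 22.7 to 836.5 ± 47.2 CPM, with no overlap for either (adjusted p = 4.59e-05 and 1.55e-07 by edgeR). Of 17155 rows tested, 2615 had every KO library below every WT library and 2551 had every KO library above. Pdhb was the only gene of the 19 tested here that rose with all libraries in the fit. Pcx, the pyruvate carboxylase that replenishes oxaloacetate, fell (-0.77), and its span overlaps Lrfn4 on the opposite strand, as that of Pdha1 overlaps Map3k15, so reads of these could be mixed if strand was not used. Dlat, Pdhx and Pck2 did not pass, and Pck1 was too low to be tested. Of the cytosolic counterparts Idh1 (-0.64) and Mdh1 (-0.19, adjusted p = 0.0225 by edgeR) fell, and Aco1 (-0.06) and Acly (0.18, adjusted p = 0.0571 by edgeR) did not pass.

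**Figure D5:**
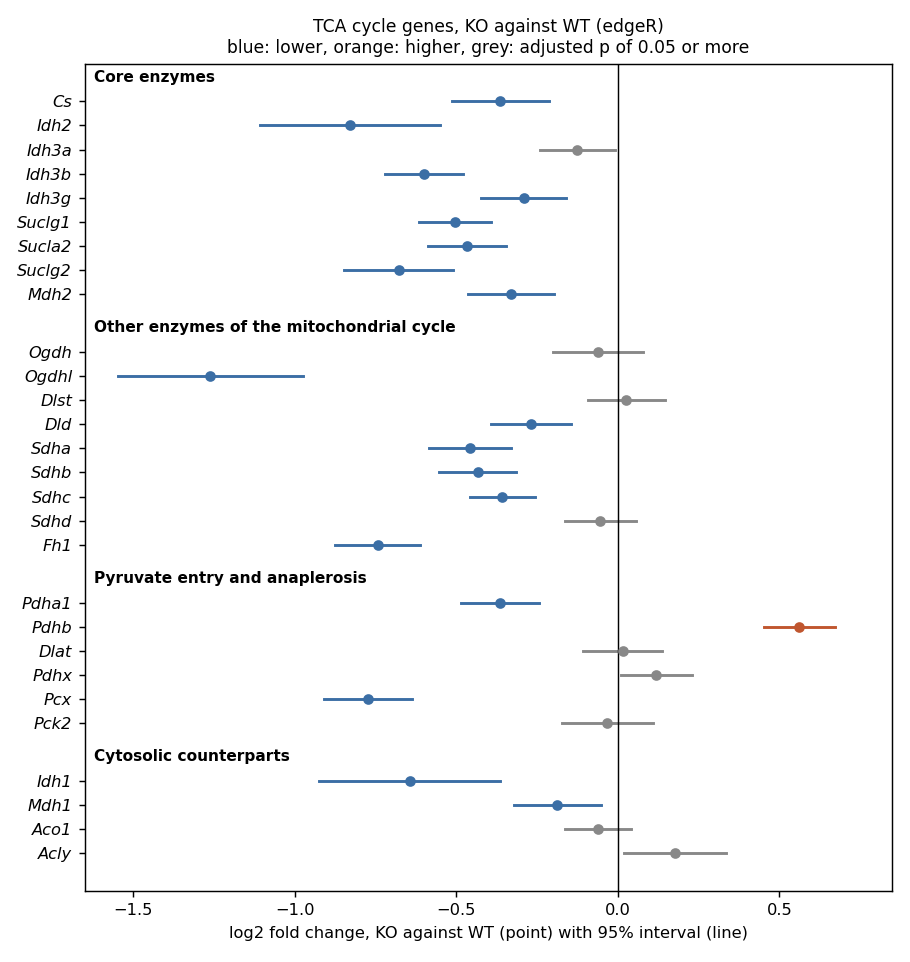
Log2 fold change of KO against WT by edgeR (x axis, points) with 95% intervals (lines) for the 9 core genes and 19 other genes of the TCA cycle and its surroundings, with 6 libraries a group. Blue genes fell, orange rose and grey did not reach an adjusted p under 0.05; the 8 core genes that fell lie between -0.83 and -0.29, and Pdhb alone is orange.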

How the data were processed

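Counts per gene for 6 WT and 6 KO libraries were used as the authors deposited them, made from poly-A mRNA, with HTSeq as the counter and HISAT2 2.0.5 and mm10 named in the submitters' processing notes. The identifiers and coordinates are those of the C57BL/6NJ assembly, and neither the strand setting nor which of these builds was mapped to is given in the sources used here. The FPKM values, per library and as group means, were computed by the authors from the counts, a gene length and the library size; the group means were not used. The authors' group means of scaled counts are a signal that was not used, nor were their own fold changes and p-values.

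KO was compared with WT in edgeR 4.0.16 under R 4.3.3 (filterByExpr, TMM, robust quasi-likelihood test), with Benjamini-Hochberg adjustment over 17155 rows. Medians, ranges, ratios and exact permutation tests were computed in Python 3.11.15 with numpy 2.4.6, and the Poisson interval with SciPy 1.17.1. Near-identical copies were sought with BLAST+ 2.17.0 (at least 90% identity over 200 bases) among GENCODE transcripts, for the 9 genes only. Deviations for the correlations were taken from log2 TMM CPM with a prior count of 2, and candidates had a mean of at least 5 CPM. The code was checked on simulated counts.

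Groups and replicate numbers came from the sample titles. Between any 2 libraries of a genotype the chi-square over its degrees of freedom was 7.41 or more, so none was merged, and the p-values measure the spread between these libraries. Alternatives were other scalings (upper quartile, library size only, or the size factors of DESeq2), annotated genes only, other filters, DESeq2 1.42.0, limma-voom (limma 3.58.1), a replicate block and each library left out. Genes named are the 9 members, a list of other TCA cycle genes (of which 1 is not reported here), Sdhaf4, the 5 genes most like the members, and marker lists. The members and lists were chosen with earlier results of these data known, and other lengths and the repeats for overlap and correlation were added once the values were known.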

Additional observations from a re-analysis of the deposited data

Results flagged for a closer look

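In 76 sets of 6 libraries (a gene or ratio in one genotype) the highest or lowest value was compared with the others by Dixon's gap test at the 95% level, which flags about 1 in 20 sets by chance, or 3.8 here, and 4 stood apart. Mdh2 was at 1059 CPM in KO3, with the other KO libraries at 834 to 911 CPM. Pdha1 was at 1424 CPM in KO3, with the others at 1136 to 1239 CPM. Sdhaf4 was at 2.73 CPM in KO1, with the others at 2.25 to 2.42 CPM. The log2 ratio of Mdh2 to Mdh1 counts was -1.05 in KO2, with the others at -0.92 to -0.87.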

How the results depend on the processing

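The count of members that fell was 8 or 9 under all 21 alternatives, Idh3a being the gene that differed, the count past the stricter thresholds was 0 in each, and no log2 fold change of a member changed sign. Of the other TCA cycle genes 9 or 10 fell. With 1 library left out, the members free of overlap numbered 5 to 9 (9 without KO3), and the median within-genotype correlation was 0.298 to 0.661. Over the same repeats the log2 differences of the ratios ranged from -0.26 to -0.16 for Suclg2/Sucla2, -0.22 to -0.11 for Suclg2/Suclg1, -0.19 to -0.13 for Idh3g/Idh3a, -0.18 to -0.10 for Mdh2/Mdh1, -0.51 to -0.44 for Idh3b/Idh3a, -0.32 to -0.29 for Idh3b/Idh3g, -0.80 to -0.63 for Idh2/Idh3a, 0.02 to 0.05 for Sucla2/Suclg1 and -0.29 to -0.078 for Idh2/Idh1, which was -0.071 as a difference of medians. WT and KO libraries of the same number did not deviate together (correlations -0.162 to 0.0243), so no pairing by number was visible. These values cannot exclude a pairing, since littermates need not deviate together, and the study's methods name littermates as controls. The replicate block left the count of members that fell at 8. As pairs, with 64 sign changes and a smallest p of 0.03125 by the exact test, Idh3b/Idh3a (-0.47), Idh3b/Idh3g (-0.31), Idh2/Idh3a (-0.74; adjusted p = 0.0938 each) and Idh3g/Idh3a (-0.17; adjusted p = 0.141) no longer passed, where adjustment over 9 ratios needs at least 6 of them at the smallest p. Depth was no limit for the members, whose smallest count was 1784. The shared sequence of Suclg2, that of Cs with Gm48254 over a shorter stretch, and the lengths behind FPKM limit statements on levels.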
